A study of Mus musculus with 69 samples.

Results

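The genes described here are subunits of the transcription factor NF-kappaB and genes of its negative feedback and output. They are Nfkbia, Nfkbiz, Nfkbie, Tnfaip3, Nfkb1, Nfkb2, Relb, Bcl3, Birc3 and Tnf, chosen by gene symbol among microarray probe sets annotated to a single gene. Of these 10 genes, 9 were measured among 18820 genes in all, each by 1 probe set. Nfkb1, which encodes the p105 precursor of the p50 subunit, was not analysed here.

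The series is a time course of gene expression in the dorsal skin of mice on Affymetrix arrays. Mice aged to 8 weeks were, for treatment, shaved and, 2 days later, given a single topical dose of TPA, a phorbol ester used as a tumour promoter, as a 1e-04 M solution in acetone. The mice were FVB/N (called FVB in the labels), an inbred laboratory strain, Spret/Ei (SPR), a wild-derived strain of Mus spretus, or the cross of the 2 strains, FVB/N x Spret/Ei (F1). Strain and time are labelled for 66 of the 69 arrays, of which 27 are FVB, 25 F1 and 14 SPR. FVB had 3 arrays each at 0, 2, 6, 12, 24, 48, 72, 168 and 1008 h after TPA. For F1 there were 4 untreated arrays, 2 each at 4, 6, 12, 24 and 72 h, 3 at 48 h, 6 at 1008 h, and 1 each at 2 and 168 h. SPR had 2 arrays each at 0, 4, 12, 24, 48 and 1008 h and 1 each at 2 and 6 h. The 0 h skin is labelled untreated, and no array is labelled as vehicle, although the protocol also speaks of vehicle, so acetone and TPA cannot be told apart here, nor can age and treatment at the late times. The labels give shaving as a step before TPA and do not say whether untreated skin was shaved, so shaving and TPA cannot be told apart either. The labels describe a single dose and sampling to 1 week, whereas the design text mentions replicate exposure and the samples include 1008 h.

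NF-kappaB dimers are held in the cytoplasm by IkappaB proteins until kinases of the IKK complex mark these inhibitors for degradation. The freed dimers switch on inflammatory genes and also the genes for their own inhibitors and for enzymes that shut off upstream signalling, which is the feedback for which the pathway is best known. Phorbol esters stand in for diacylglycerol and activate protein kinase C, which in several cell types signals to IKK through the adaptors CARD, BCL10 and MALT1, and in skin TPA brings on inflammation and epidermal thickening.

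Values are log2 expression values, and a change is a difference of group means on that scale, given with its standard error. A gene was called higher or lower at a Benjamini-Hochberg adjusted p under 0.05 in limma over all genes and a log2 change of at least 1, which is a doubling. The labels do not say that each array came from a separate mouse, so the p-values reflect array-to-array spread, which could be partly technical. The keratinocyte markers Krt5, Krt14, Krt1, Krt10 and Lor lay at the 99.7 percentile of gene means or above. In bulk skin, a change in the number of cells of a type and a change in RNA per cell cannot be told apart. All FVB arrays form batch 1 and all others batches 2 and 3, so only changes from 0 h were compared between FVB and the other strains. Array 1 of SPR at 12 h had a narrow spread of values, with an interquartile range of 1.38 against a median of 3.64 over arrays, as did array 2 of F1 at 72 h with 2.39. FVB untreated arrays 2 and 3 scored 2.10 and 2.54 for liver transcripts, the mean of list members' centred log2 values, and array 1 scored -0.60. Scores as high were found in array 1 of FVB at 12 h (2.95) and of F1 at 24 h (2.84), and array 1 of FVB at 24 h scored 1.99. Pancreas transcripts, scored alike, were at 1.18 and 1.94 in the same 2 FVB controls, 1.88 in SPR untreated array 1 and 3.77 in FVB array 3 at 6 h. They were also at 1.37 in FVB array 2 at 6 h, 1.39 in FVB array 1 at 48 h, 1.47 in FVB array 2 at 72 h and 1.55 in the narrow SPR array. Centring each array on its median moved the median log2 change of all genes from 0.02 to 0.20 in FVB at 2 h and by no more than 0.18 in any other comparison of a time with 0 h.

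In FVB skin, all 9 genes measured were called higher 2 h after TPA, where 3.60% of all genes were. The median change of the 9 was 1.97, and that of all genes was 0.02. Bcl3, an atypical IkappaB protein that works in the nucleus as a co-activator of p50 and p52, had the largest change. Its values were 5.90, 6.09 and 6.53 in untreated skin and 9.81, 10.76 and 10.67 at 2 h, so the groups lay far apart. The log2 change was 4.24 ± 0.35, an 18.9-fold difference (adjusted p = 2.52e-12), and it ranked 9 among the changes upward of all genes. No treated array of any of the 9 genes overlapped the untreated arrays, whereas 20.4% of all genes had their 3 treated arrays above all 3 controls.

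**Figure D1:**
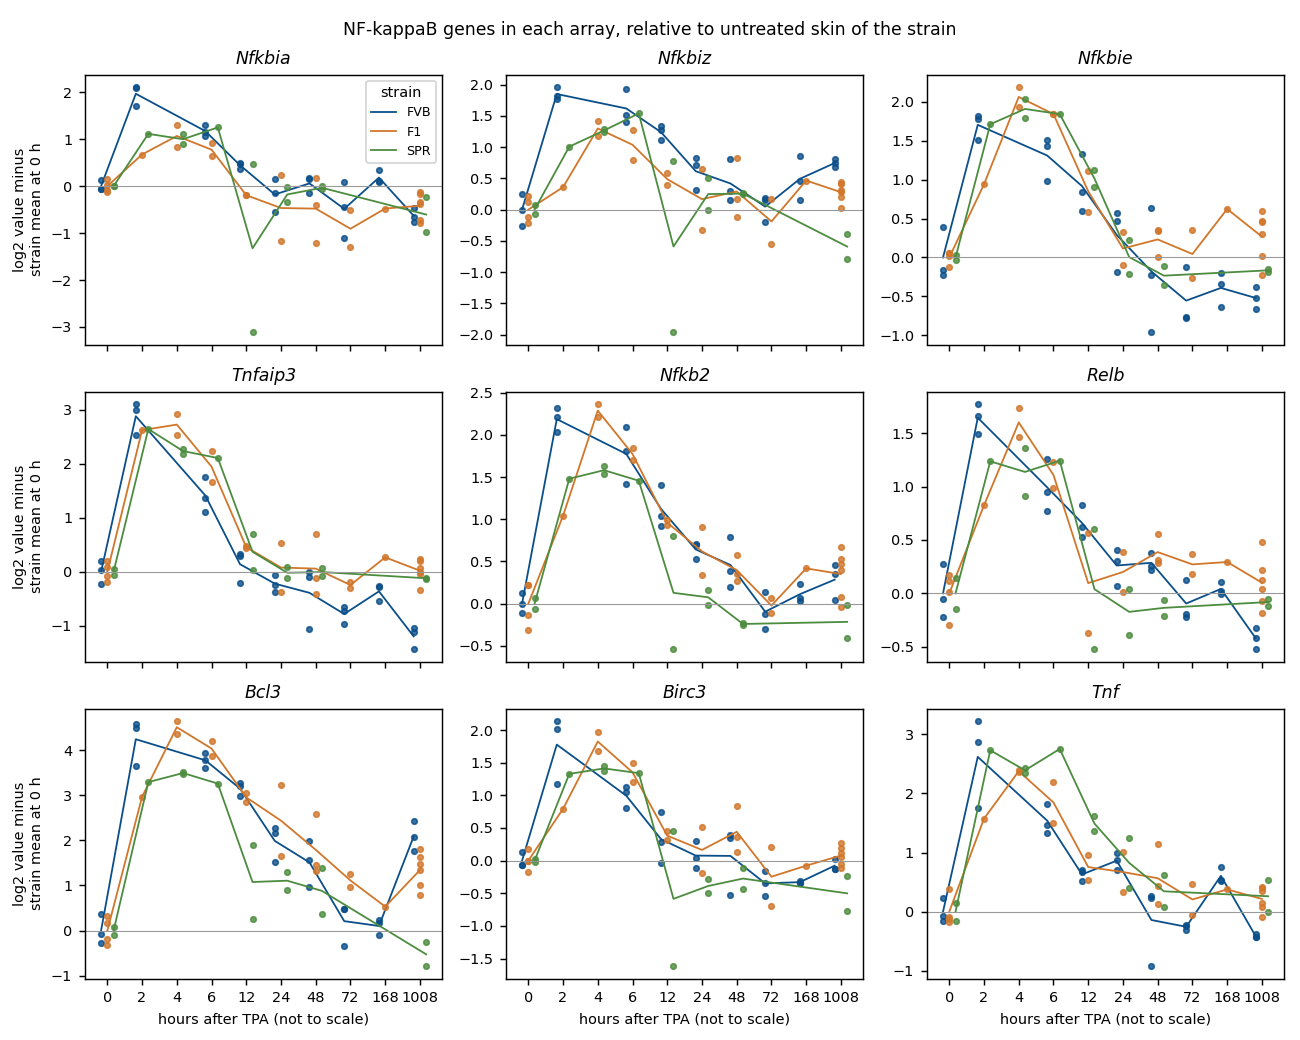
Log2 value of each array minus the mean of the same strain's untreated arrays, for the 9 genes measured, against hours after TPA (ordered, not to scale); points are arrays, lines join group means, and colours mark FVB, F1 and SPR. All 9 genes stood above 0 in every array at 2, 4 and 6 h, Bcl3 had the largest change at these times, and a single SPR array at 12 h lay far below the other for Nfkbia, Nfkbiz and Birc3.

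The enzyme-type inhibitor Tnfaip3, also called A20, edits ubiquitin chains on upstream adaptors and so ends signalling to IKK. It read 7.22, 7.49 and 7.64 in untreated FVB skin and 9.98, 10.56 and 10.45 at 2 h. Every treated array was above every control, with a change of 2.88 ± 0.24, or 7.36-fold (adjusted p = 3.36e-12).

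Among the IkappaB inhibitors, Nfkbia encodes IkappaB-alpha, the fast-turnover inhibitor that exports NF-kappaB from the nucleus. Its untreated values were 9.71, 9.72 and 9.92, and its values at 2 h were 11.49, 11.90 and 11.87. The arrays did not overlap, and the change was 1.97 ± 0.40 (adjusted p = 0.000437). Nfkbie, which encodes IkappaB-epsilon, a slower inhibitor, read 6.18, 6.23 and 6.78 before treatment and 8.21, 7.91 and 8.18 at 2 h, a change of 1.70 ± 0.26 (adjusted p = 5.56e-06). Nfkbiz encodes IkappaB-zeta, a nuclear protein that helps NF-kappaB at a subset of promoters. It moved from 8.29, 8.04 and 7.78 to 9.80, 10.00 and 9.85, a change of 1.85 ± 0.32 (adjusted p = 5.18e-05). For all 3 genes the treated arrays lay close together and clear of the controls.

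Nfkb2 and Relb encode the partners of the alternative NF-kappaB dimer, p52 (from the p100 precursor, itself an inhibitor) and RelB. Nfkb2 read 7.66, 7.42 and 7.52 in untreated FVB skin and 9.56, 9.86 and 9.74 at 2 h, a change of 2.19 ± 0.22 (adjusted p = 2.59e-10). Relb read 6.12, 6.44 and 5.95 and then 7.67, 7.94 and 7.83, a change of 1.64 ± 0.21 (adjusted p = 1.84e-07). For both subunits the treated arrays were tightly grouped above all controls.

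Birc3 encodes cIAP2, a ubiquitin ligase of the TNF receptor complex that holds back cell death, and Tnf encodes the cytokine that both induces and is induced by NF-kappaB. Birc3 read 7.69, 7.69 and 7.90 untreated and 8.93, 9.90 and 9.78 at 2 h, a change of 1.78 ± 0.29 (adjusted p = 1.82e-05). Tnf read 6.32, 5.92 and 6.01 untreated and 7.84, 9.31 and 8.95 at 2 h, a change of 2.62 ± 0.28, or 6.15-fold (adjusted p = 2.66e-09). Array 1 at 2 h was the lowest of the 3 for both, as it was for every other gene measured except Nfkbie, and it still lay above every control.

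Of 11 neutrophil markers, 2 were called higher at that time, Cxcr2 and Csf3r. The neutrophil score, made like the liver score, was -1.20, -1.03 and -0.96 in untreated arrays and -0.79, 0.38 and -0.07 at 2 h, lowest in array 1. Its part in the changes was not tested. None of 10 macrophage and 11 lymphocyte markers was called. Of 11 liver transcripts, 6 were called lower at 2 h, the direction of the liver scores of untreated arrays 2 and 3. Without these 2 controls all 9 genes were still called at 2 h, with Bcl3 changed by 4.51 and Tnfaip3 by 3.11.

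Because these genes moved together, the bases before their start sites were searched for the kappaB consensus, the decamer that NF-kappaB dimers bind, and for TGANTCA, the element bound by the AP-1 factors that TPA also activates. Of the 9 genes measured, 7 had RefSeq start-site windows (GRCm38.p6) of 250 bases before and 50 bases after the start. In the 250 bases before a start, on either strand, the kappaB consensus occurred at 4 of the 7 genes, Nfkbia, Nfkbie, Tnfaip3 and Nfkb2, and in 7.25% of 32851 windows of all genes. Tnfaip3 has 2 starts and Nfkb2 has 3, and a match at any of them was counted, which favours them over single windows. The 250 bases before the start of these 4 genes (for Tnfaip3 and Nfkb2, the first start) are shown 5′ to 3′ on the gene's strand, since they carry these matches, with kappaB consensus matches in capitals. They lie at chr12:55492648-55492897 (minus strand) for Nfkbia, chr17:45555450-45555699 (plus) for Nfkbie, chr10:19015411-19015660 (minus) for Tnfaip3 and chr19:46304487-46304736 (plus) for Nfkb2.
Nfkbia: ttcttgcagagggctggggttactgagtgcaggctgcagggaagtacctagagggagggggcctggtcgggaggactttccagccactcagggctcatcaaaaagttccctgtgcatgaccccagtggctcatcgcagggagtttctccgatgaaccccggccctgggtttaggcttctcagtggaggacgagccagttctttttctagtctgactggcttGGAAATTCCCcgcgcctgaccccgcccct
Nfkbie: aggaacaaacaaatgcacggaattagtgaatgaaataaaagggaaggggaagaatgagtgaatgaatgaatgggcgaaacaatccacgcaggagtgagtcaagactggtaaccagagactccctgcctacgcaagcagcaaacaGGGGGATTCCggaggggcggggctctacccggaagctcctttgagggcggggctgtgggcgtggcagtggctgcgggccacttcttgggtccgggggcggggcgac
Tnfaip3: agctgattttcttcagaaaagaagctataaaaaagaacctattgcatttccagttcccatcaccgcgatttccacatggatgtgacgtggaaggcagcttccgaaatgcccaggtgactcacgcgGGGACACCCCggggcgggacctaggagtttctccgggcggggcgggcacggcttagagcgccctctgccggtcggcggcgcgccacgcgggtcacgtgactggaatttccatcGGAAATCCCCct
Nfkb2: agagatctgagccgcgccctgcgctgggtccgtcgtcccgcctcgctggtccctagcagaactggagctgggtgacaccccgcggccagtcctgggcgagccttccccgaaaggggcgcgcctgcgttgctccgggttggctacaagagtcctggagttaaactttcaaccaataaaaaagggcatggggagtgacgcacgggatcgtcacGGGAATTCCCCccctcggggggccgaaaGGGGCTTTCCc
Nfkbia had 1 match, beginning at position -29 from the start, and Nfkbie had 1 at -106. Tnfaip3 had 2, at -125 and -12. Nfkb2 had 3, of which those at -39 and -38 overlap on opposite strands and the third is at -11. Bcl3 had a match just after its start, at position 2, and with the 50 bases after the start included 5 of 7 genes had one against 8.46% of windows. Tnf and Birc3 had none in these windows. TGANTCA lay before a start of Nfkbie, Tnfaip3 and Nfkb2 (its second start, not shown), 3 of the 7 genes, and in 6.75% of windows. A looser form, GGG and CC with any 5 bases between them, occurred before a start at all 7 genes, but also in 45.8% of windows. These matches describe the sequence and do not show binding.

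Fewer genes were called in FVB at later times. At 6 h, 7 of the 9 were still called higher, where 6.45% of all genes were, and Relb (0.99 ± 0.21) and Birc3 (0.99 ± 0.29) lay just under the threshold of 1. At 12 h it was 3 of 9, Bcl3, Nfkbiz and Nfkb2, against 5.46% of genes. At 24 h it was Bcl3 alone, against 2.85%, and the same at 48 h, against 3.10%. No member was called in limma at 72 h, where 0.940% of genes were called higher, or at 168 h, where 0.255% were. At an unadjusted p under 0.05 it would be 2 members at 72 h and 1 at 168 h.

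**Figure D2:**
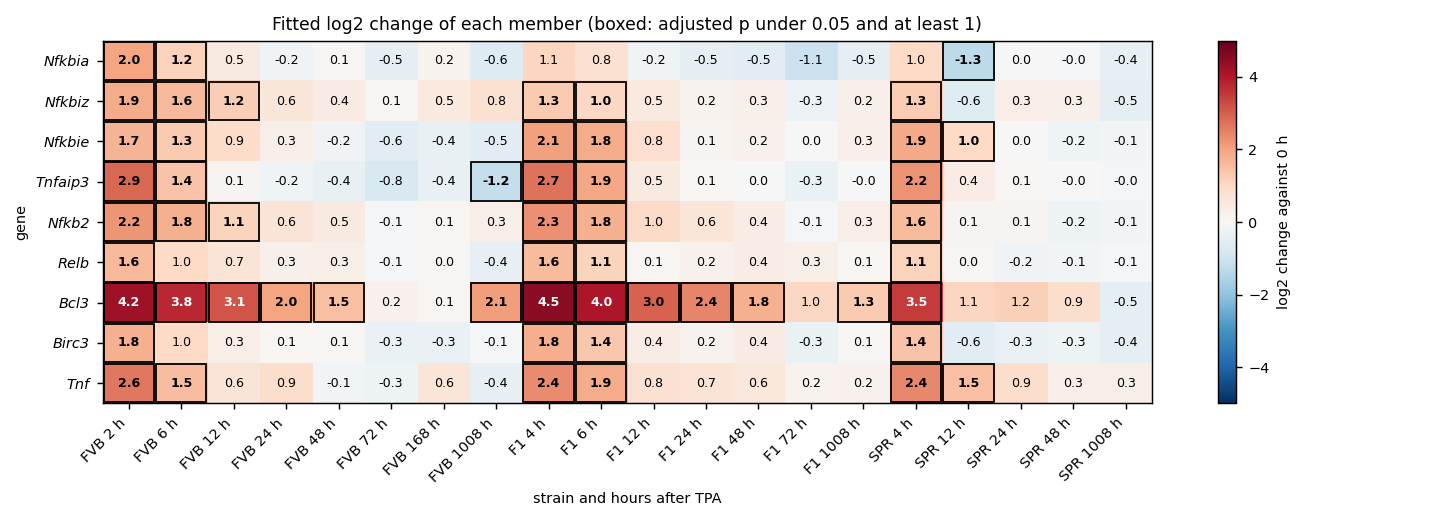
Fitted log2 change against untreated skin for the 9 genes measured (vertical axis) at every tested strain and time (horizontal axis); colour and number give the change, and boxed bold cells passed adjusted p under 0.05 with a change of at least 1 on the log2 scale. All 9 cells are boxed in FVB at 2 h, 8 of 9 in F1 at 4 and 6 h and in SPR at 4 h, and from 24 h onward Bcl3 is the gene boxed, apart from Tnfaip3 in FVB at 1008 h.

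Tnfaip3 was still called at 6 h (1.41 ± 0.24) and not at 12 h. Its FVB arrays read 9.21, 8.56 and 8.81 at 6 h and 7.25, 7.78 and 7.74 at 12 h, when they overlapped the controls, as did those of Birc3, which had a lowest value of 7.72 at 12 h against a highest control of 7.90. Tnfaip3 was called lower at 6 h than at 2 h, by -1.47 ± 0.24 (adjusted p = 8.44e-05, with 2.17% of genes called lower), and again at 12 h than at 6 h, by -1.27 ± 0.24 (adjusted p = 0.000831, with 0.553% of genes). It was the one member called in both steps. Tnf was called lower in the first step, by -1.08 ± 0.28 (adjusted p = 0.0119), a call that was lost without array 2 or 3 at 2 h or array 2 at 6 h (changes of -0.77, -0.96 and -0.98). From 12 to 24 h no member was called lower in limma, where 0.399% of genes were, and 3 had an unadjusted p under 0.05.

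Bcl3 was the one member still called at 24 and 48 h. Its FVB arrays read 10.12, 9.96 and 9.77 at 6 h, 9.37, 9.45 and 9.15 at 12 h, and 7.70, 8.33 and 8.45 at 24 h. At 48 h they read 7.74, 8.16 and 7.15, and at 72 h 6.66, 5.84 and 6.65, which overlapped the controls. At 6 and 12 h the changes from untreated skin were 3.77 ± 0.35 and 3.15 ± 0.35, and at 24 and 48 h they were 1.99 ± 0.35 and 1.51 ± 0.35. The 48 h call (adjusted p = 0.0038) was lost without untreated arrays 2 and 3 (change 1.78, adjusted p = 0.0594). The neutrophil score moved over the same times: it was -1.20 to -0.96 in untreated FVB arrays, 0.38 to 1.40 at 6 h and 0.59 to 1.12 at 12 h. At 24, 48 and 72 h it was 0.38 to 0.87, -0.35 to 0.40 and -0.82 to -0.54. Of 11 neutrophil markers, 6 were called higher at 6 h, 5 each at 12 and 24 h, and 4 at 48 h. Their part in the course of Bcl3 was not tested.

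Of the others, Nfkb2 was changed by 1.77 ± 0.22 at 6 h and 1.12 ± 0.22 at 12 h, and Nfkbiz by 1.62 ± 0.32 and 1.24 ± 0.32. At 12 h their arrays read 8.46, 8.94 and 8.57 for Nfkb2 and 9.30, 9.37 and 9.15 for Nfkbiz, all above the controls. Both 12 h calls were lost without untreated arrays 2 and 3 (1.00 and 0.99, both under 1 before rounding), and that of Nfkb2 also without array 2 at 12 h (0.98). Nfkbie (1.31 ± 0.26), Tnf (1.54 ± 0.28) and Nfkbia (1.17 ± 0.40) were called at 6 h and not at 12 h. The 6 h call of Nfkbia (adjusted p = 0.0258) was the least steady, since leaving out untreated array 1 or 2, or array 2 or 3 at 6 h, gave changes of 1.11 to 1.18 that missed the threshold. The standard error of Nfkbia also takes in the narrow SPR array at 12 h. Ordered by mean level, 2 h came first in FVB for all 9 genes and 6 h came next. The ranges of these neighbouring groups did not overlap for Nfkbia, Tnfaip3, Relb and Birc3, and did for Nfkbiz, Nfkbie, Nfkb2, Bcl3 and Tnf.

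The F1 cross repeated the early rise. At 4 h, 8 of the 9 genes were called higher, where 5.46% of all genes were, and at 6 h again 8, where 5.44% were. Bcl3 read 6.16, 5.53, 6.00 and 5.65 in untreated F1 skin and 10.20 and 10.48 at 4 h, a change of 4.50 ± 0.37 (adjusted p = 5.18e-12). Tnfaip3 read 6.82, 6.54, 6.65 and 6.93, and then 9.27 and 9.66, a change of 2.73 ± 0.26. Tnf (2.38 ± 0.30), Nfkb2 (2.29 ± 0.23), Nfkbie (2.06 ± 0.28), Birc3 (1.82 ± 0.31), Relb (1.60 ± 0.23) and Nfkbiz (1.30 ± 0.34) followed. Nfkbia had values of 10.99 and 11.48 at 4 h against 10.20, 10.09, 10.05 and 10.33 untreated. Its arrays did not overlap either, but the change of 1.07 ± 0.42 did not pass the test (adjusted p = 0.0687). That standard error takes in the SPR arrays at 12 h, whose standard deviation for Nfkbia was 2.53, against 0.34 in F1 at 4 h. At 6 h the changes ran from 1.04 ± 0.34 for Nfkbiz to 4.03 ± 0.37 for Bcl3, and Nfkbia again did not pass (0.78 ± 0.42). Batch 2 held a single F1 array at each of these times. Within it alone, and without array 2 at 6 h, fewer of the 9 genes were called, and these fits rest on single treated arrays. The single F1 array at 2 h lay above every untreated F1 array for all 9 genes, as it did for 21.1% of all genes, with Bcl3 at 8.80 and Tnfaip3 at 9.36.

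After 6 h, Bcl3 was the one member called in F1: 2.95 ± 0.37 at 12 h (2.48% of genes called higher), 2.44 ± 0.37 at 24 h (1.14%) and 1.76 ± 0.33 at 48 h (1.04%). The 24 h arrays read 7.48 in batch 3 and 9.05 in batch 2, and the call was lost without the latter (1.66, adjusted p = 0.0903). Without the former, array 1 with the liver score of 2.84, the change was 3.21 and was called. Neutrophil markers were called higher in F1 for 4 of 11 at 4 and 6 h and 3 of 11 at 12, 24 and 48 h, and their part was not tested. In batch 2 alone Bcl3 changed by 2.60, 2.98 and 1.78 at 12, 24 and 48 h, and no member was called at 48 h, where that batch had 2 arrays. The other F1 groups at these times, in batch 2 and in batch 3, were single arrays, so calls within a batch are not given. At 72 h Bcl3 read 6.79 and 7.10, above every control, and its change of 1.03 ± 0.38 did not pass (adjusted p = 0.0982, with 0.202% of genes called higher). The single F1 array at 168 h read 6.37 for Bcl3, just above the highest untreated value.

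In SPR at 4 h, 8 of the 9 genes were called higher, against 2.57% of all genes, again with Nfkbia outside (1.00 ± 0.49, adjusted p = 0.281). The standard error of Nfkbia again takes in the narrow SPR array at 12 h. Bcl3 read 6.80 and 6.98 untreated and 10.39 and 10.36 at 4 h, a change of 3.49 ± 0.43 (adjusted p = 5.92e-07). Tnf read 5.54 and 5.84 and then 8.12 and 8.04, a change of 2.39 ± 0.35 (adjusted p = 7.3e-06). Tnfaip3 read 7.16 and 7.05 and then 9.39 and 9.29, a change of 2.24 ± 0.30. For all 9 genes both treated arrays lay above both controls, as they did for 27.5% of all genes. Of 11 neutrophil markers, 4 were called higher in SPR at 4 h, and their part was not tested. The smaller changes were 1.91 ± 0.32 for Nfkbie, 1.58 ± 0.27 for Nfkb2, 1.41 ± 0.36 for Birc3, 1.27 ± 0.40 for Nfkbiz and 1.14 ± 0.26 for Relb. Birc3 and Nfkbiz lost their calls without any 1 of the 4 arrays, and with SPR fitted alone none of the 9 was called. These fits take in the narrow SPR array at 12 h. The standard deviations at 12 h were 1.94 for Nfkbiz and 1.46 for Birc3, against 0.04 and 0.06 at 4 h. The single SPR arrays at 2 and 6 h read 10.18 and 10.14 for Bcl3 and 8.42 and 8.44 for Tnf, and for all 9 genes both were above both controls, as 35.9% and 47.8% of all genes were. The 6 h array is in batch 3 and both controls are in batch 2, so time and batch cannot be told apart for it.

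SPR at 12 h rested on the narrow array. Array 1 read 6.84 for Nfkbia, 6.40 for Nfkbiz and 6.26 for Birc3, and array 2 read 10.41, 9.14 and 8.32. With both arrays Nfkbie (1.01 ± 0.32) and Tnf (1.49 ± 0.35) were called higher, against 3.10% of genes, and Nfkbia was called lower (-1.32 ± 0.49), against 15.3%. Without array 1 the change of Nfkbia was 0.46 and it was not called, Nfkbie (0.91) and Tnf (1.36) were not called, and Bcl3 was (1.89, adjusted p = 0.0463). No member was called in SPR at 24 h, where 0.191% of genes were called higher and Bcl3 was changed by 1.18 ± 0.44, or at 48 h, where 0.165% were and Bcl3 was changed by 0.88 ± 0.43. At an unadjusted p under 0.05 these times gave 2 members and 1. Over all tested times, the F test was passed by all 9 genes in each strain, as it was by 50.9% of genes in FVB, 26.7% in F1 and 35.3% in SPR. The SPR test includes 12 h with the narrow array, and with SPR fitted alone none of the 9 passed it.

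At 1008 h, Bcl3 was again higher than in untreated FVB skin, after values near the controls at 72 and 168 h. Its arrays read 6.33, 6.42 and 6.08 at 168 h and 8.60, 7.95 and 8.24 at 1008 h. The change from 0 h was 0.10 ± 0.35 at 168 h and 2.09 ± 0.35 at 1008 h (adjusted p = 2.7e-05), a time at which 4.22% of genes were called higher. The 1008 h arrays lay above all controls, and over all alternatives run the change stayed between 1.92 and 2.36 with an adjusted p of at most 0.00288. In F1 the 6 arrays at 1008 h ran from 6.63 through a median of 7.24 to 7.65, above every untreated array. The change was 1.32 ± 0.28 (adjusted p = 0.00597), with 0.515% of genes called higher, and it missed the threshold without untreated array 2 (1.24, adjusted p = 0.0511). In batch 2 alone the change was 0.98 and was not called. In SPR, Bcl3 read 6.63 (batch 2) and 6.10 (batch 3) at 1008 h, below both controls (batch 2), as 18% of all genes did. Its change of -0.45 ± 0.44 did not pass. No gene (0%) was called higher in limma for SPR at 1008 h, and no member was called in either direction. There, 358 genes and 0 members had an unadjusted p under 0.05.

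**Figure D3:**
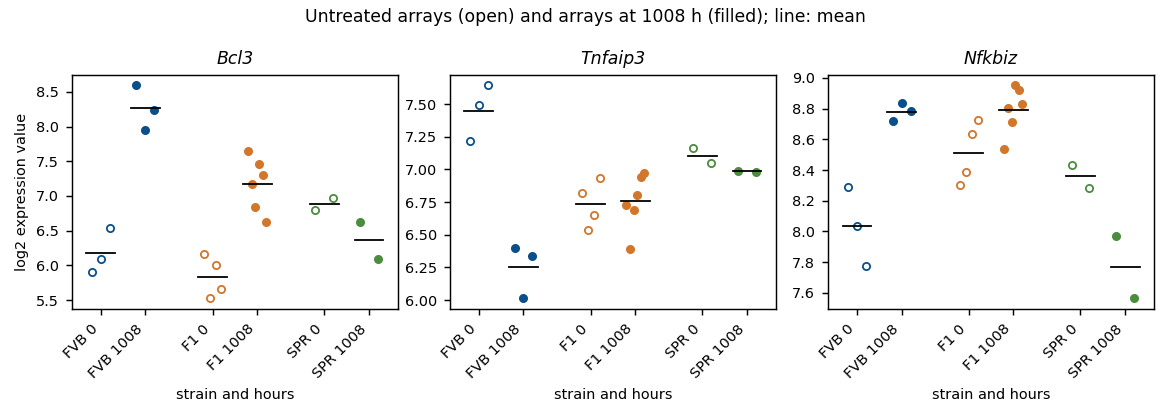
Log2 expression values of Bcl3, Tnfaip3 and Nfkbiz in untreated arrays (open circles) and arrays at 1008 h (filled circles) of FVB, F1 and SPR, with group means as lines; levels of FVB are not comparable with those of the other strains. Bcl3 at 1008 h lay above all untreated arrays in FVB and F1 and below them in SPR, and Tnfaip3 lay below all untreated arrays in FVB and SPR. Nfkbiz lay above all untreated arrays in FVB and below them in SPR, and overlapped them in F1. Array 2 of SPR at 1008 h is in batch 3, and the other SPR arrays shown are in batch 2.

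Tnfaip3 went the other way in FVB at 1008 h. It read 6.40, 6.01 and 6.34, below all controls, with a change of -1.20 ± 0.24 (adjusted p = 0.000379), where 3.92% of genes were called lower. Without untreated arrays 2 and 3 the change was -0.96 and did not pass (adjusted p = 0.0878). In F1 the 6 arrays ran from 6.39 through a median of 6.77 to 6.97 and overlapped the untreated arrays, with a change of -0.01 ± 0.19. In SPR both arrays, at 6.99 and 6.98, lay just under the controls, with a change of -0.04 ± 0.30. The other 7 genes were not called at 1008 h in any strain. In FVB their changes ran from -0.63 ± 0.40 for Nfkbia to 0.75 ± 0.32 for Nfkbiz. Of the 9 genes, 5, Tnfaip3 among them, had all FVB arrays at 1008 h below all controls, and 2 had all above. The shares of all genes were 23.6% and 21%. In SPR, 6 of the 9 lay below both controls at 1008 h, against 18% of all genes.

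Markers of other cell types also differed at 1008 h. In FVB, 4 of 11 neutrophil markers were called higher, S100a8, S100a9, Cxcr2 and Mmp8, of which S100a8 and S100a9 are also made by keratinocytes. The neutrophil score was -1.20 to -0.96 in untreated FVB arrays and 0.38 to 0.90 at 1008 h. In F1 it was -1.33 to -0.88 and then -0.82 to -0.04, with 2 of 11 called, and in SPR -0.65 and -0.62 and then -0.67 and -0.84, with none called. The part of this difference in the change of Bcl3 was not tested. Lymphocyte markers were called lower in FVB for 6 of 11, Cd3e, Cd3g, Cd3d, Cd2, Cd4 and Cd8a. The lymphocyte score was -0.19, 0.82 and 1.34 in untreated arrays 1, 2 and 3 and -0.49 to -0.33 at 1008 h. Its part in the change of Tnfaip3 was not tested.

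Whether strains differed in their response was tested on the difference of changes. Between F1 and FVB, at 6, 12, 24, 48, 72 and 1008 h, 1 of 54 differences passed, Tnfaip3 at 1008 h, which was 1.19 ± 0.31 higher in F1 (adjusted p = 0.0349), where 0.526% of genes were called higher. That call was lost under centring on array medians (1.09), without both liver-rich FVB controls (0.96), and without any 1 of the FVB arrays at 1008 h, among other single arrays. Bcl3 at 1008 h differed by -0.77 ± 0.45 between F1 and FVB, which did not pass (adjusted p = 0.492), with an interval of -1.68 to 0.14. At 6 h the 9 differences lay between -0.58 ± 0.47 for Nfkbiz and 0.53 for Tnfaip3 and Nfkbie, with 0% of genes called in limma and 731 at an unadjusted p under 0.05. At 12, 24, 48 and 72 h the share called either way was 0%, 0.0106%, 0.0691% and 0.361%, and no member had an unadjusted p under 0.05 at 6 to 72 h.

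Between SPR and FVB, the change of Bcl3 at 1008 h was lower in SPR, with a difference of -2.54 ± 0.56 (adjusted p = 0.0106), where 0.739% of genes were called lower. This call was lost without SPR untreated array 2 (-2.45, adjusted p = 0.0767) or SPR array 2 at 1008 h (-2.35, adjusted p = 0.0994). At 12 h, Bcl3 (-2.07 ± 0.56), Nfkbiz (-1.83 ± 0.51) and Nfkbia (-1.77 ± 0.63) were called lower in SPR, as were 13.6% of all genes. Without the narrow SPR array these became -1.26, -0.46 and 0.02, and none was called. No member passed at 24 or 48 h, where 0.0106% and 0.143% of genes were called either way. Between SPR and F1, 1 of 45 differences passed, Bcl3 at 12 h (-1.87 ± 0.57, adjusted p = 0.0442, with 5.27% of genes called lower), and it was -1.06 and not called without that array. Bcl3 at 1008 h was -1.76 ± 0.53 between SPR and F1 and did not pass, and 0% of genes were called in limma, with 654 at an unadjusted p under 0.05. At 4 h the differences between SPR and F1 ran from -1.01 ± 0.57 for Bcl3 to 0.01 ± 0.46 for Tnf, and none passed, where 0.00531% of genes were called either way, against 0% at 24 and 48 h. Untreated SPR skin (2 arrays in batch 2) and F1 skin (2 arrays in batch 2 and 2 in batch 3) were compared in levels, with batch as a term. None of the 9 genes passed, with Bcl3 at 0.98 ± 0.38 (adjusted p = 0.707) and 1 of the 9 at an unadjusted p under 0.05 in limma, and 0.239% of all genes were called. The probes were designed on laboratory mouse sequence, so a level difference between these strains can also come from hybridisation. These comparisons share untreated arrays with each other and with the time courses.

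Other genes of the pathway were followed by list. Of 4 further NF-kappaB and IkappaB family genes, 3 were called higher in FVB at 2 h, with a list median of 1.32 against 0.02 for all genes. They were Rel (1.68 ± 0.34) and Rela (1.41 ± 0.21), which encode the activating subunits c-Rel and p65, and Nfkbid (1.24 ± 0.24), which encodes the nuclear inhibitor IkappaB-NS. Nfkbib, for IkappaB-beta, was not called at 2 h (0.75 ± 0.26) and was called lower at 72 h (-1.03 ± 0.26). In F1 at 4 h all 4 were called higher, and in SPR at 4 h none was, although their median was 0.96.

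Of the 4 measured genes of the CARD, BCL10 and MALT1 complex, 3 were called higher in FVB at 2 h. Malt1, the protease of the complex, rose by 2.22 ± 0.36, Bcl10, its adaptor, by 1.64 ± 0.26 and Card10, a scaffold, by 1.04 ± 0.31. Card9, the myeloid scaffold, was called lower at 6 h (-1.18 ± 0.22), and also in F1 at 4 h (-1.56 ± 0.23) and SPR at 4 h (-1.21 ± 0.27). Of 10 kinases of the pathway, 3 were called higher in FVB at 2 h, with a median of 0.26. Map3k14 encodes NIK, the kinase of the alternative pathway, and changed by 1.07 ± 0.21 at 2 h and 1.18 ± 0.21 at 6 h. Map3k8 (1.11 ± 0.24) and Tbk1 (1.08 ± 0.26) were the others, and no kinase was called lower in FVB or F1. In SPR at 12 h, the time that includes the narrow array, 3 kinases were called lower, where 15.3% of all genes were. They were Map3k7 (-1.25 ± 0.40), Ikbke (-1.12 ± 0.35) and Tab2 (-1.77 ± 0.47), and their changes without that array were not examined.

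**Figure D4:**
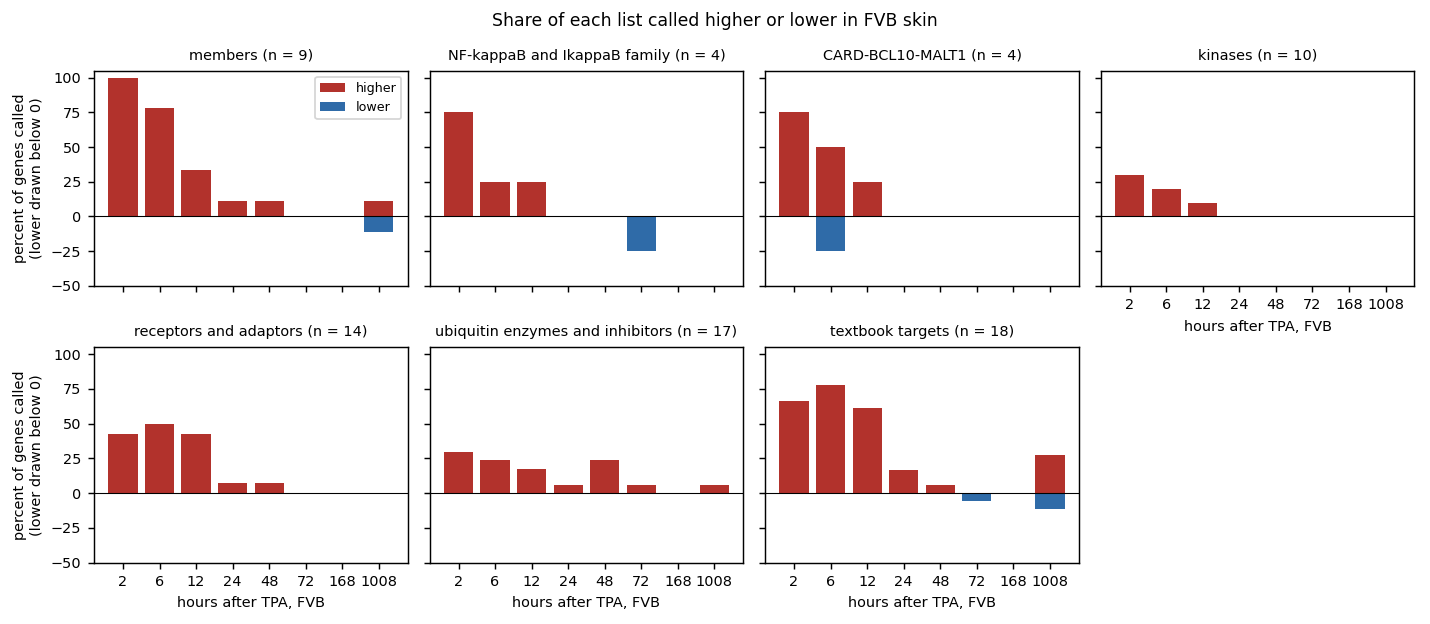
Percent of each list's measured genes called higher (red, above 0) or lower (blue, drawn below 0) against untreated skin in FVB, by hours after TPA; n is the number of genes measured. The members had all 9 genes called higher at 2 h and the textbook targets 12 of 18, the kinases 3 of 10 and the ubiquitin enzymes and inhibitors 5 of 17, and the targets had calls in both directions at 1008 h.

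Among 14 receptors and adaptors, 6 were called higher in FVB at 2 h and 7 at 6 h, with medians of 0.52 and 1.06. Cd40, a co-stimulatory receptor of the TNF receptor family, changed by 1.99 ± 0.28 at 2 h, and Tnfrsf1b, the second TNF receptor, by 1.50 ± 0.36. Myd88, the adaptor of Toll-like and interleukin-1 receptors, changed by 2.03 ± 0.35 at 6 h, and Irak3, an inhibitor in that route, by 1.60 ± 0.30 at 2 h. Among 17 ubiquitin enzymes and inhibitors, 5 were called higher at 2 h, with a median of 0.36. Tnip3, which binds A20, changed by 3.84 ± 0.48, and Tnip1, another A20 partner, by 1.70 ± 0.20 at 2 h and 1.74 ± 0.20 at 6 h. Zc3h12a, the ribonuclease regnase-1, changed by 2.12 ± 0.37 at 2 h and 2.75 ± 0.37 at 6 h, and N4bp1 by 1.62 ± 0.32 at 2 h. Like Bcl3, Zc3h12a was also called higher at 1008 h in FVB (2.07 ± 0.37) and F1 (1.06 ± 0.29).

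Of 18 textbook targets of NF-kappaB, 12 were called higher in FVB at 2 h, 14 at 6 h and 11 at 12 h, with medians of 2.27, 1.87 and 1.31. The list gave 16 of 18 in F1 at 4 h and 11 of 18 in SPR at 4 h. The neutrophil chemokine Cxcl2 changed by 5.78 ± 0.57, the cytokine Il6 by 5.68 ± 0.38 and the monocyte chemokine Ccl2 by 5.05 ± 0.45 in FVB at 2 h. Saa3, an acute-phase gene, was highest later in FVB, with 4.62 ± 0.72 at 24 h. In F1 its largest change at the tested times was at 6 h (5.54 ± 0.76), with 3.18 ± 0.76 at 24 h. In FVB at 1008 h, 5 targets were called higher, among them Saa3 (3.83 ± 0.72) and Cxcl2 (2.56 ± 0.57). There, 2 were called lower, Irf1 (-1.08 ± 0.31) and Vcam1 (-1.23 ± 0.40).

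For each member, the 2 genes outside the set with the most similar course in FVB were found by the root mean square difference of log2 change over 8 times, and the same measure was taken over 7 times in F1, among 18811 genes. Bcl3 was closest to Hbegf, an EGF receptor ligand, at 0.25 in FVB and 0.46 in F1, where Hbegf ranked 3, and next to Slc5a8 at 0.56 in FVB and 1.18 in F1 (rank 63). Nfkbiz was closest to Epha2 (0.10) and Dusp7 (0.17), which ranked 1092 and 22 in F1. Tnfaip3 was closest to Tnfsf18 (0.35) and Irf1 (0.46), which ranked 11 and 38 in F1. Birc3 was closest to Rela (0.19) and Ppp1r18 (0.20), ranked 215 and 11 in F1. Nfkb2 was closest to Hdc (0.18) and Junb (0.19), ranked 301 and 84 in F1. Nfkbie was closest to Cytip (0.18) and Pik3r5 (0.23), ranked 75 and 25. Relb was closest to Wsb1 and Tlr2 (both 0.21), ranked 782 and 511. Tnf was closest to Zc3h12c (0.38) and Ccl1 (0.40), ranked 344 and 55. Nfkbia was closest to Havcr2 (0.26) and Stk40 (0.27), ranked 7132 and 483. The FVB neighbours thus ranked from 3 to 7132 in F1. These genes were picked for their likeness in FVB, and the FVB distances are a description.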

How the data were processed

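Expression was measured in dorsal skin on 69 one-colour Affymetrix arrays. The deposited values are log2 expression values, and RMA is the tool named in the submitters' processing notes, without a version; the sources used here do not say how the 3 batches were handled beforehand. RMA normalises arrays to a common distribution, so values are relative to the array's other probe sets. Of 35556 probe sets, 21218 had 1 gene symbol in the platform annotation, 1881 had several and 12457 were unnamed, and for each of 18820 genes the probe set of highest mean was used. The number of arrays limits the precision.

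Changes were tested, two-sided, with limma 3.58.1 (lmFit, eBayes) in R 4.3.3, in 1 model of 27 group means over 66 arrays with a term for batch 3 against batch 2 and 38 residual degrees of freedom. The 3 arrays with no strain in the labels entered no test, and groups of 1 array are given as values. The fit was tested on simulated data. The members, gene lists and alternatives were chosen with earlier results of these data known. All members are named. Other genes named are up to 4 per pathway list with the largest change among genes called at a FVB time, and the 2 of most similar course. Promoter sequences are RefSeq's (GRCm38.p6). Alternatives were other eBayes settings, centring, cyclic loess, leaving out dim probe sets, testing all of them, no fold threshold, single batches, no batch term, each strain by itself, a replicate block and each array left out. Fits without the 2 narrow arrays, the 2 liver-rich FVB controls, or 3 further FVB arrays were added after seeing the data. Replicate numbers did not pair arrays: deviations of same-numbered arrays correlated at -0.005 in FVB, 0.004 in F1 and -0.018 in SPR on average.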

Additional observations from a re-analysis of the deposited data

Results flagged for a closer look

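In the 18 groupings of 4 or 6 arrays examined (the 9 genes in untreated F1 skin and in F1 at 1008 h), 1 array stood apart by its gap to the others, Tnf in untreated F1 array 3, at 6.11 against 5.54 to 5.63 in the other 3. Chance sets about 1 in 20 such groupings apart.

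Of 135 differences of response between strains tested for the 9 genes, 6 passed. They were Tnfaip3 in F1 minus FVB at 1008 h (1.19), Bcl3 in SPR minus F1 at 12 h (-1.87), Nfkbia, Nfkbiz and Bcl3 in SPR minus FVB at 12 h (-1.77, -1.83 and -2.07), and Bcl3 in SPR minus FVB at 1008 h (-2.54). The 4 at 12 h rest on the narrow SPR array and were not called without it.

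The 3 arrays with no strain in the labels entered no comparison. In each of them, the array at 2 h, the array at 6 h and the array of unknown time, 9 of 9 genes lay above all 6 untreated F1 and SPR arrays, as did 20.9%, 39.3% and 26.6% of all genes.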

How the results depend on the processing

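Of 54 calls of a member against 0 h, 26 held in every alternative run, among them all 9 in FVB at 2 h, and the others lost their call in at least 1. The change of Nfkbia in SPR at 12 h, -1.32, turned to 0.05 under cyclic loess and to 0.46 without the narrow arrays, and its difference from FVB, -1.77, to 0.02 without them. Counts of members called that moved by over 1.5 times follow. Centring on array medians gave 2 for F1 at 12 h and 0 for F1 minus FVB. Cyclic loess gave 1 for F1 at 72 h, 1 for FVB at 24 against 12 h, 0 for SPR minus F1 and 2 for SPR minus FVB. With no fold threshold the counts were 5 and 3 in FVB at 12 and 24 h and 3 in F1 at 12 h. Strains fitted alone gave 1 for FVB at 24 against 12 h, 1 for F1 at 72 h, and 0 for SPR at 4 h, at 12 h and in the F test. The fit of SPR alone takes in the narrow array at 12 h. The replicate block gave 2 for F1 at 12 h and 0 for F1 minus FVB and for SPR minus F1; the samples share only a number. Batch 2 alone gave 0 for F1 at 48 and 1008 h, and 5 and 0 for SPR at 4 and 12 h. The F1 groups at 4, 6, 12 and 24 h in batch 2 were single arrays, as were those at 12, 24 and 48 h in batch 3. Their counts also moved and are not given. Fewer arrays enter these fits. Without the narrow arrays the counts were 1 for SPR at 12 h, 1 for FVB at 24 against 12 h and 0 for SPR minus F1. Without both liver-rich FVB controls they were 0 and 1 for FVB at 48 and 1008 h, 0 for F1 minus FVB, 0 for SPR minus F1 and 2 for SPR minus FVB. Other causes were not tested.

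With each array of a comparison left out in turn, counts ran from 0 to 1 for F1 minus FVB, F1 at 24, 72 and 1008 h, from 1 to 3 for FVB at 6 against 2 h, from 1 to 2 for F1 at 12 h, from 5 to 8 for F1 at 6 h, from 5 to 6 for SPR at 4 h, from 1 to 5 for SPR at 12 h, from 0 to 5 for SPR minus F1 and from 1 to 8 for SPR minus FVB. The change of Nfkbia in SPR at 12 h ran from -3.11 to 0.46, and its difference from FVB from -3.56 to 0.02. Restricting the kappaB search to bases before the start changed the count from 5 to 4 genes of 7, and the looser motif gave 7.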

Other observations

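Among the 3 arrays without a strain in the labels, Bcl3 read 10.15 in the array at 2 h, 10.10 in the array at 6 h and 10.10 in the array of unknown time. Tnfaip3 read 9.50, 9.26 and 9.86, and Tnf read 8.71, 8.43 and 8.42. Nfkbie was the member that differed most between them, at 7.02 in the 2 h array, 8.47 in the 6 h array and 8.24 in the third.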
